A study of Mus musculus with 8 samples.

Results

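The effectors through which Notch signals reach the genome were followed in the atrioventricular canal of mouse hearts that lacked Gata4 in endothelial-derived cells. They comprised 7 genes, Hes1, Hes6, Hey1, Hey2, Heyl, Rbpj and Nrarp, taken as every probe set whose annotation is one of these symbols alone, which gave 13 of the 45101 probe sets on the array. The mutant pools were Gata4flox/flox; T2Cre+ (Gata4T2del), in which Cre recombinase under the Tie2 promoter, active in endothelium, deletes Gata4 from endothelium and from the cushion mesenchyme that endothelium forms. The control pools were Gata4flox/flox, with no Cre named in their labels, so an effect of Cre itself and an effect of losing Gata4 cannot be told apart. Each group had 4 pools of 10 microdissected canals, all on a mixed C57BL6/129 background, with 50 ng of total RNA amplified per pool, and the sources used here do not give the embryonic age. The myocardium of the canal, which also uses Gata4, was not targeted. Whether the pools came from separate litters is not stated, so p-values measure the spread between pools.

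Notch is a cell surface receptor that is cut when a ligand on a neighbouring cell binds it. The freed intracellular part enters the nucleus and joins the DNA-binding protein RBPJ, which otherwise represses its targets, and the complex switches on short-lived repressors of the Hes and Hey families. In the heart, Notch in the endocardium promotes the transition of endothelial cells to cushion mesenchyme, while Hey1 in atrial and Hey2 in ventricular muscle keep the canal programme of Bmp2 and Tbx2 out of the chambers.

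The arrays differed in background before any gene was compared. Background was read on each array from 27 control probe sets for bacterial transcripts, and a probe set counted as above it when brighter than their 90th percentile. Those controls had a median intensity of 4.002 to 26.0 on the mutant arrays, against 158 on control 2, 135 on control 3, 39.3 on control 1 and 19.4 on control 4. The fit used weights for arrays, and controls 2 and 3 had the lowest, 0.302 and 0.350. According to the design text 2 control samples, which it does not name, were set aside as noisy, so all 4 are used here, and the changes of the effectors and of most other named genes are also given without controls 2 and 3, with equal weights for the 6 arrays left. Gata4 itself averaged 11.12 ± 0.15 in mutant pools and 11.25 ± 0.17 in control pools on its brighter probe set (SD, n = 4 each, log2 scale), a change of -0.15 (SE 0.11, adjusted p = 0.585 by limma), or -0.14 without controls 2 and 3. Its dimmer probe set, 1418864_at, ran the other way, averaging 7.81 ± 0.11 in mutant pools and 6.32 ± 1.47 in control pools, a change of 0.98 (SE 0.46, unadjusted p = 0.0459, adjusted p = 0.388). That probe set was above background on 4 of 4 mutant and 2 of 4 control arrays, and its change was 0.30 without controls 2 and 3 and passed the threshold without control 1 (2.10) or control 4 (2.28). Neither probe set checks the deletion, because untargeted muscle is in the tissue and where the probes lie relative to the deleted exons is not known here.

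No Notch effector passed the test for a difference between mutant and control pools. Of the 13 probe sets, 10 passed the filter on low intensity, and limma called 0 of these 10 at an adjusted p of 0.05, against 0.0444% of all 27022 probe sets tested. At an unadjusted p under 0.05 the count was also 0 of 10, against 12.6% of all probe sets tested. The mutant and control values overlapped for all 13 probe sets, including the 10 tested, while 7.63% of all tested probe sets had groups that did not overlap. Log2 changes, mutant over control, were positive for 4 and negative for 6 probe sets, with a median of -0.09, against a median of 0.03 over all probe sets tested. These counts take Rbpj and Nrarp more than once. All probe sets of Rbpj had negative changes, and those of Nrarp went both ways. The 7 genes were chosen with earlier results known, so these counts describe them and are no test of the family.

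**Figure D1:**
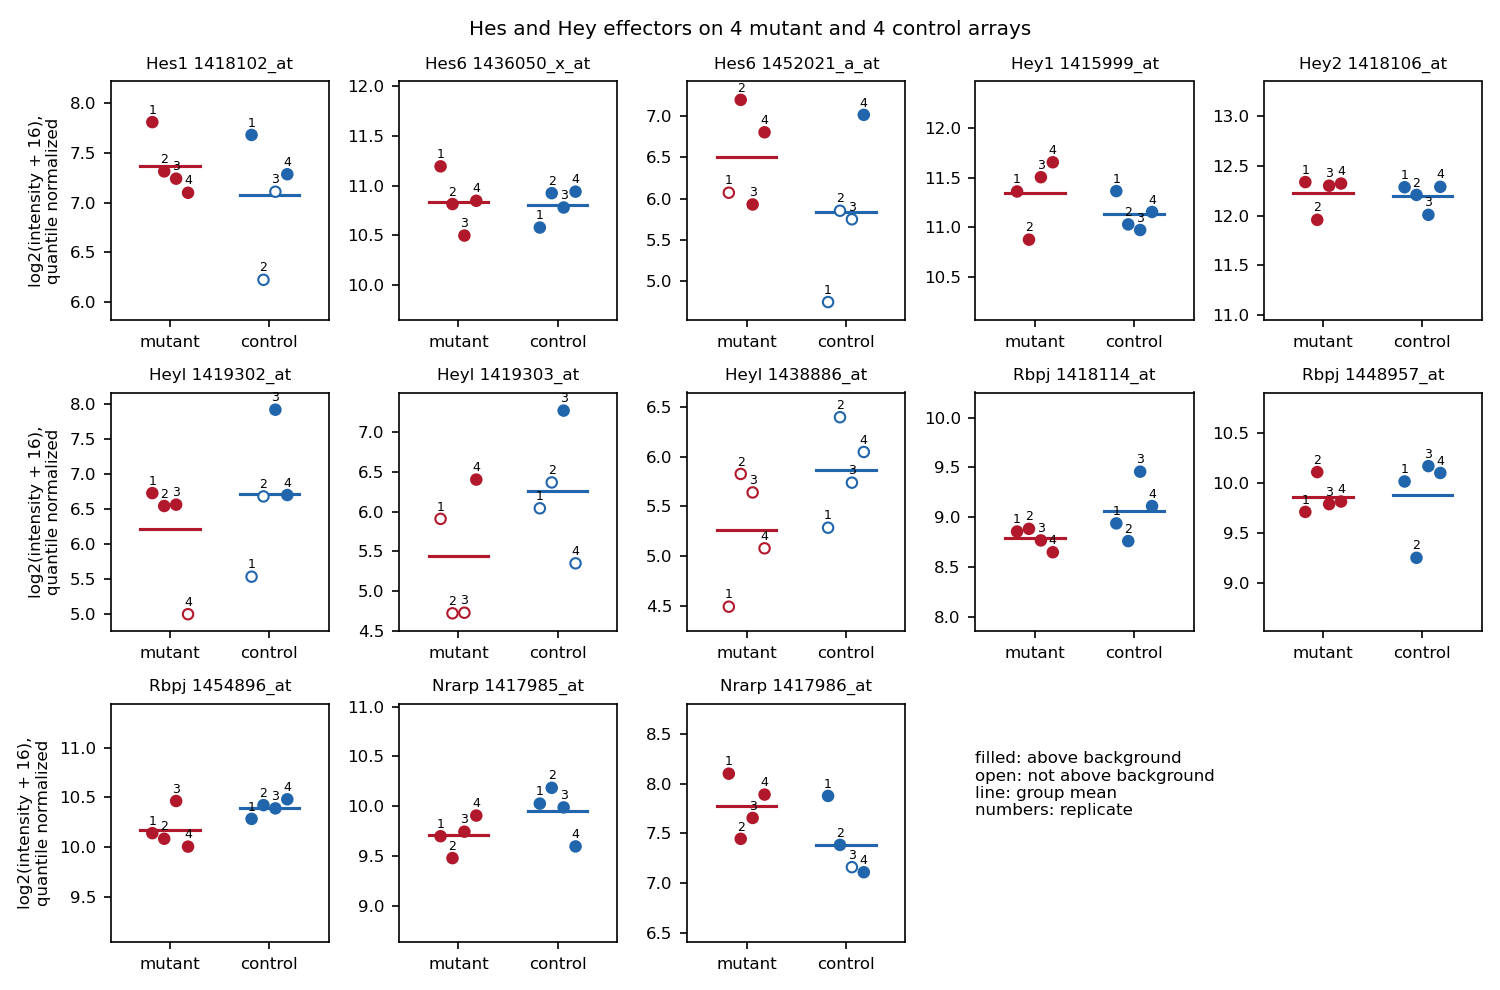
Log2(intensity + 16) after quantile normalization for each of the 13 probe sets, with mutant pools on the left and control pools on the right of each panel. Each point is 1 pool of 10 canals with its replicate number, filled where the probe set was above background and open where it was not, and lines are group means. The groups overlap in all 13 panels, and open points are confined to Hes1, Heyl, the dimmer Hes6 probe set and the dimmer Nrarp probe set.

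Rbpj encodes the DNA-binding protein on which all canonical Notch signals converge. On its brightest probe set, 1454896_at, the log2 values were 10.14, 10.08, 10.46 and 10.00 in mutants 1 to 4, against 10.28, 10.42, 10.39 and 10.48 in controls 1 to 4. Mutant 3 lay among the controls and the other 3 mutants lay below every control. The log2 change was -0.16 (SE 0.15, 95% interval -0.47 to 0.15, adjusted p = 0.666 by limma). Probe set 1418114_at had 8.86, 8.88, 8.77 and 8.65 in mutants 1 to 4, against 8.94, 8.76, 9.46 and 9.11 in controls 1 to 4, a change of -0.28 (SE 0.18, interval -0.67 to 0.11, adjusted p = 0.537). Control 2 lay at the level of the mutants, and control 3 was the highest of the 8 arrays.

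The third Rbpj probe set, 1448957_at, had 9.71, 10.11, 9.79 and 9.81 in mutants 1 to 4, against 10.02, 9.25, 10.17 and 10.10 in controls 1 to 4. Control 2 stood below all other arrays, and the change was -0.16 (SE 0.15, interval -0.48 to 0.17, adjusted p = 0.689). All 3 Rbpj probe sets were above background on all 8 arrays and all had negative changes that did not pass. Without controls 2 and 3 they were -0.21, -0.24 and -0.20 for 1454896_at, 1418114_at and 1448957_at. With arrays centred on their medians and each change measured from that of the median probe set, the direction flipped for 2 of them, to 0.14 for 1454896_at and 0.24 for 1448957_at.

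Hey1 encodes a repressor of the Hairy/E(spl)-related family with a basic helix-loop-helix domain, made in atrial muscle and in endocardium. On its single probe set the log2 values were 11.36, 10.88, 11.50 and 11.65 in mutants 1 to 4, against 11.36, 11.03, 10.97 and 11.16 in controls 1 to 4. Mutants 3 and 4 lay above every control, mutant 1 equalled control 1 to 2 decimals, and mutant 2 was the lowest of the 8 arrays. On the authors' own linear scale the intensities were 2680, 1917, 3110 and 3350 in mutants 1 to 4, against 2669, 1820, 1798 and 2407 in controls 1 to 4. Hey1 averaged 11.35 ± 0.34 in mutant pools and 11.13 ± 0.17 in control pools (SD, n = 4 each). The change was 0.24 on the log2 scale, 1.18-fold (SE 0.14, interval -0.07 to 0.54), and its adjusted p of 0.501 by limma was the smallest among the effectors. Without controls 2 and 3 the change was 0.09 (SE 0.18, adjusted p = 0.929), or 0.38 of its size with all arrays.

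Hey2 encodes the related repressor of ventricular muscle, also made in endocardium. Its log2 values were 12.34, 11.96, 12.30 and 12.32 in mutants 1 to 4, against 12.28, 12.21, 12.01 and 12.29 in controls 1 to 4. Apart from mutant 2 and control 3, the lowest array of each group, the arrays lay within a narrow range. Hey2 averaged 12.23 ± 0.18 in mutant pools and 12.20 ± 0.13 in control pools (SD, n = 4 each). The change was 0.03 (SE 0.09, adjusted p = 0.912), with the narrowest 95% interval of the effectors, -0.15 to 0.21. A change of any size within that interval is compatible with these pools. The sign turned without controls 2 and 3, to -0.06 (SE 0.10). On median-centred arrays, measured from the median probe set, Hey1 at 0.96 and Hey2 at 0.74 passed the threshold (adjusted p = 0.00434 and 0.0269 by limma). Under that scaling 3257 of all probe sets passed as higher and 6862 as lower, while quantile normalization gave 7 and 5.

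Heyl, the third member of the Hey family, was near or under background in this tissue as the array measured it. Probe set 1438886_at was above background on 0 of 4 mutant and 0 of 4 control arrays, and 1419303_at on 1 of 4 mutant and 1 of 4 control arrays. Both were removed by the filter, and no size of change is given for them. The brightest, 1419302_at, was above background on 3 of 4 mutant and 2 of 4 control arrays and had log2 values of 6.72, 6.54, 6.56 and 4.99 in mutants 1 to 4, against 5.53, 6.68, 7.92 and 6.70 in controls 1 to 4. Control 3 was highest and mutant 4 lowest. The change of -0.23 had a standard error of 0.61 and an interval of -1.51 to 1.05 (adjusted p = 0.899), and it was 0.09 without controls 2 and 3.

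Hes1 encodes the best known Hes repressor, a direct target of Notch in many tissues whose protein represses its own gene. It was above background on 4 of 4 mutant arrays and on 2 of 4 control arrays, the exceptions being controls 2 and 3. Its log2 values were 7.81, 7.31, 7.24 and 7.10 in mutants 1 to 4, against 7.68, 6.22, 7.11 and 7.29 in controls 1 to 4. Control 2 stood lowest, and controls 1, 3 and 4 lay within the range of the mutants. The intensities behind these values were 192, 98.1, 87.3 and 76.9 in mutants 1 to 4, against 184, 135, 260 and 102 in controls 1 to 4, so the highest intensity of a control, on control 3, was still under that array's background level of 270.

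The weighted change of Hes1 was -0.04 (SE 0.35, interval -0.79 to 0.71, adjusted p = 0.975), whereas the plain means were 7.37 ± 0.31 in mutant pools and 7.07 ± 0.61 in control pools (SD, n = 4 each). The 2 measures thus differed in sign, and with equal weights the change was 0.29 (SE 0.40). Without controls 2 and 3 it was -0.12 (SE 0.33). It was -0.67 (SE 0.39) on the authors' own scaling, and -0.74 (SE 0.36, unadjusted p = 0.0418) on median-centred arrays, relative to the median.

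Hes6 is a Hes family member that opposes Hes1 and promotes differentiation of neurons and skeletal muscle. Its brighter probe set, 1436050_x_at, had 11.19, 10.81, 10.50 and 10.85 in mutants 1 to 4, against 10.58, 10.92, 10.78 and 10.94 in controls 1 to 4. Mutant 1 was the highest and mutant 3 the lowest of all arrays, with the controls between them. The change was 0.02 (SE 0.16, interval -0.31 to 0.35, adjusted p = 0.964), and 0.08 without controls 2 and 3. The suffix _x_at marks a probe set whose probes can bind other transcripts. The dimmer probe set, 1452021_a_at, was above background on 3 of 4 mutant arrays and 1 of 4 control arrays and was removed by the filter.

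Nrarp encodes a small ankyrin repeat protein that is switched on by Notch and in turn limits the activity of the Notch complex. Its brighter probe set, 1417985_at, had 9.70, 9.48, 9.74 and 9.90 in mutants 1 to 4, against 10.02, 10.18, 9.99 and 9.59 in controls 1 to 4. Controls 1, 2 and 3 lay above every mutant and control 4 lay below 3 of the 4 mutants. The change was -0.15 (SE 0.15, interval -0.47 to 0.17, adjusted p = 0.705). The dimmer probe set, 1417986_at, ran the other way, with 8.10, 7.44, 7.66 and 7.89 in mutants 1 to 4, against 7.88, 7.38, 7.16 and 7.11 in controls 1 to 4, a change of 0.28 (SE 0.30, interval -0.36 to 0.92, adjusted p = 0.722). It was above background on 4 of 4 mutant and 3 of 4 control arrays. With controls 2 and 3 left out the changes were -0.10 for 1417985_at and 0.28 for 1417986_at. Both directions flipped on median-centred arrays, to 0.06 for 1417985_at and -0.41 for 1417986_at, so no direction is given for Nrarp.

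**Figure D2:**
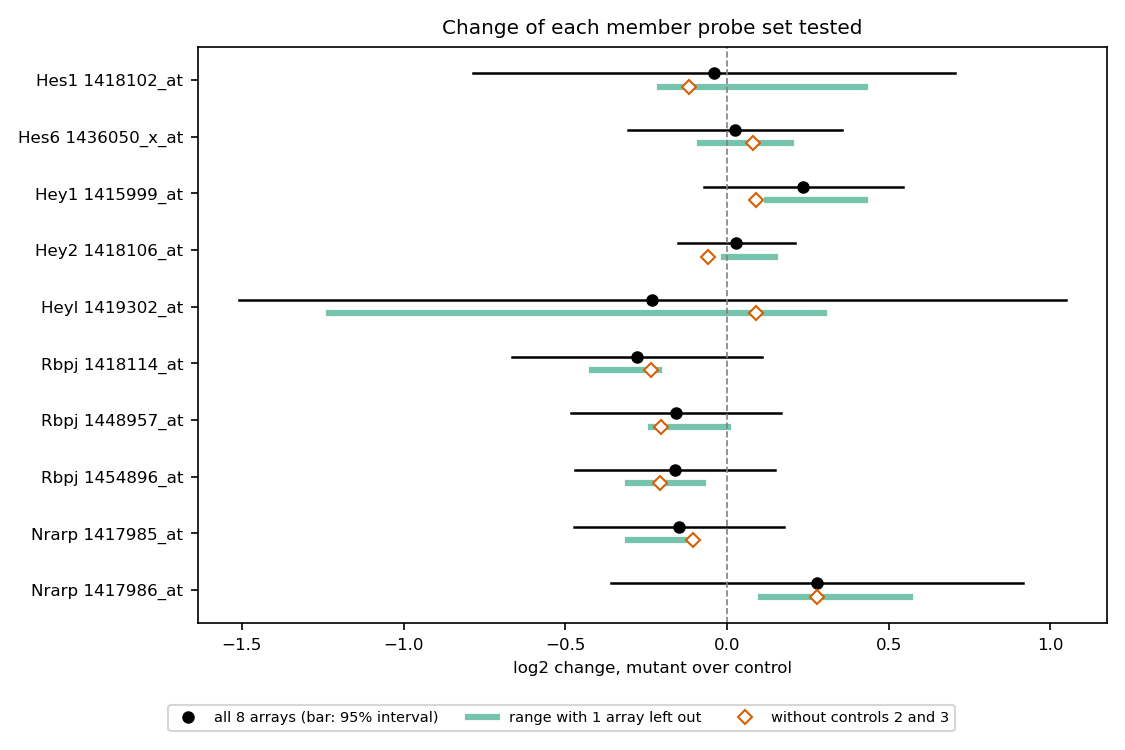
Log2 change, mutant over control, of the 10 probe sets tested. Black points with bars are the fit on all 8 arrays with its 95% interval, green bands span the values with 1 array left out, and open diamonds leave out controls 2 and 3. All 10 intervals include 0, the interval of Hey2 is the narrowest (-0.15 to 0.21) and that of Heyl the widest (-1.51 to 1.05).

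The effectors differed in how far they stood above background. The intensity of Hey2 was 81.7 to 252 times the background level on mutant arrays and 12.5 to 103 times on control arrays, and that of Hey1 was 39.4 to 146 times and 5.76 to 47.1 times. For Hes1 these ratios were 2.02 to 4.09 on mutant arrays and 0.426 to 2.00 on control arrays. Heyl on 1419302_at reached 0.137 to 1.87 on mutant arrays and 0.319 to 1.41 on control arrays. In all, 7 probe sets from 5 genes, Hes6, Hey1, Hey2, Rbpj and Nrarp, were above background on all 8 arrays. The background level was itself higher on controls 2 and 3, so these ratios show detection on each array and are not compared between groups.

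**Figure D3:**
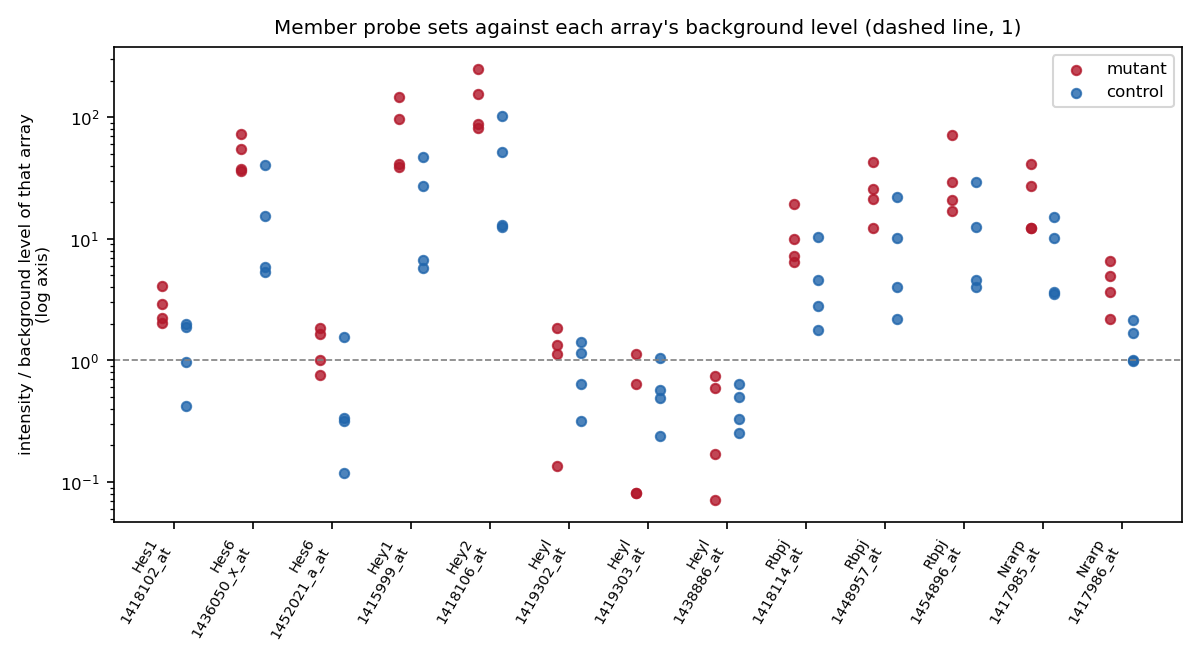
Deposited intensity divided by the background level of the same array, on a log axis, for the 13 probe sets, with mutant arrays on the left in red and control arrays on the right in blue. Hey1 and Hey2 lie above 5 times background on every array, Hes1 falls to 0.426 on a control array, and Heyl on 1438886_at lies under the dashed line at 1 on all 8 arrays.

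The start site regions of the effectors are shown because the RBPJ complex recognises the short core TGGGAA, usually within GTGGGAA. The RefSeq table of build GRCm38.p6 held 6 windows of 300 bases for 4 of the 7 genes, Hes6, Hey2, Rbpj and Nrarp, each reaching from 250 bases before to 50 bases after a start site. The windows of Hey2 and Nrarp and the upstream window of Rbpj are printed 5′ to 3′ along the gene, with TGGGAA on either strand in capitals. The others are not printed. The Hey2 window is chr10:30842734-30843033 on the minus strand, the upstream Rbpj window is chr5:53590096-53590395 on the plus strand and the Nrarp window is chr2:25180508-25180807 on the plus strand.
Hey2: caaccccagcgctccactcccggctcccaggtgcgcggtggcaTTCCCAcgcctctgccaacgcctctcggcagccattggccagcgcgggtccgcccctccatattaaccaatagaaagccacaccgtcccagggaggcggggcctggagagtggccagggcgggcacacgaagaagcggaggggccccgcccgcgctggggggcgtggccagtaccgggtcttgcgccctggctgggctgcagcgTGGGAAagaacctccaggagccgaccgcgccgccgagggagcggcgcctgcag
Rbpj: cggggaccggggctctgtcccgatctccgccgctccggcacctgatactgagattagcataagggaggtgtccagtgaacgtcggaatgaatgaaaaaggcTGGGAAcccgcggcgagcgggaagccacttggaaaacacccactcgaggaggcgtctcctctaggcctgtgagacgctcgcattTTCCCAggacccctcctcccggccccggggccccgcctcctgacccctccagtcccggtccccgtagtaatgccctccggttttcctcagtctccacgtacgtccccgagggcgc
Nrarp: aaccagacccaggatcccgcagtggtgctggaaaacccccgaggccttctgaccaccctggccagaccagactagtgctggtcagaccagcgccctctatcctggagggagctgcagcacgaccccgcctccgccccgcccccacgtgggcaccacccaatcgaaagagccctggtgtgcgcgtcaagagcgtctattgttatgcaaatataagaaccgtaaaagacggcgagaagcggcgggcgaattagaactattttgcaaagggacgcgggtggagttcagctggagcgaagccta

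The Hey2 window held the core at 2 places, at positions -207 to -202 on the reverse strand and -3 to 3 on the forward strand, counted from 1 at the first transcribed base with no position 0. Both were part of the longer GTGGGAA, which contains the core, and which 6.38% of all 32851 windows in the table hold on either strand, against 25.6% for the core alone. The upstream Rbpj window held 2 cores and 0 of the longer form, and the second Rbpj window, which overlaps it, held 1 of these same cores. The Nrarp window and both Hes6 windows held 0 cores. The Nrarp window and the first Hes6 window each held 2 matches to CACNAG, the N-box that Hes proteins bind, and the other 4 windows held 0. The Nrarp window also held 1 match to CACGTG, an E-box. On both strands the N-box is found in 42.5% and this E-box in 7.15% of all windows. The GATA motif was searched on both strands as AGATAA and AGATAG with the variants beginning in T (TGATAA for one and TGATAG for the other). None of the 6 windows held any of these forms, which 29.8% of all windows hold. A match describes these letters only, and its absence says nothing of RBPJ or Gata4 binding elsewhere at the gene.

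The genes upstream of the effectors gave the same count. For each list the brightest probe set of every gene was used. Of 10 Notch receptors and ligands tested, 0 passed, 4 had positive and 6 negative changes, and the median was -0.09. The receptor gene Notch2 had log2 values of 12.78, 12.93, 12.81 and 12.62 in mutants 1 to 4, against 12.96, 12.89, 13.10 and 13.03 in controls 1 to 4. Mutant 2 overlapped the controls, and the change was -0.23 (SE 0.07, unadjusted p = 0.00456, adjusted p = 0.250), which was -0.21 without controls 2 and 3 and became 0.28 relative to the median on median-centred arrays. The ligand gene Dll3 changed by -1.20 (SE 0.54, adjusted p = 0.375), with 5.22, 6.71, 5.23 and 6.74 in mutants 1 to 4, against 6.89, 7.93, 7.88 and 6.88 in controls 1 to 4. The groups did not overlap, and the probe set was above background on 2 of 4 mutant and 4 of 4 control arrays. On all 8 arrays Dll3 had an unadjusted p of 0.0387, but without controls 2 and 3 it was 0.185 for a change of -0.91 (SE 0.65), and with the 3 prime to 5 prime RNA ratio as covariate the change was -0.63 (SE 0.55). The receptor Notch1 (-0.19) and the ligand Jag1 (0.07) did not pass either, and both were named after their values were seen.

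Of 20 tested genes for processing and modifying Notch, 0 passed, with 7 positive and 13 negative changes and a median of -0.08. The ubiquitin ligase gene Dtx2 had the only unadjusted p under 0.05 in that list, with a change of 1.13 (SE 0.50, adjusted p = 0.373) on 1439429_x_at, a probe set above background on 4 of 4 mutant and 2 of 4 control arrays. Without controls 2 and 3 it changed by 0.29. Of 12 tested cofactors of RBPJ and Groucho corepressors, through which Hes proteins silence genes, 0 passed, with 3 positive and 9 negative changes and a median of -0.06. The coactivator gene Maml1, which bridges the Notch complex to histone acetylation, changed by -0.32 (SE 0.13, adjusted p = 0.357) on its brightest probe set and by 0.11 (SE 0.32) on the next, the first being -0.25 without controls 2 and 3.

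The other Hes genes were barely measured. Hes2 and Hes3 were above background on 0 arrays, Hes7 on 1 and Hes5 on 3 of the 8, and these 4 were left out by the filter. Of the 5 genes tested in the list of other Hes-related and Id genes, 0 passed. The 2 of smallest p were Id2, a dominant negative partner of helix-loop-helix proteins, with -0.11 (SE 0.06, adjusted p = 0.428), and the repressor Bhlhe40, with 0.31 (SE 0.21, adjusted p = 0.535). The size for Bhlhe40 turned on the control arrays, with 0.15 without controls 2 and 3, 0.15 without control 3 alone, 0.77 without control 1 and 0.67 without control 4, none of which passed. Id2 was -0.09 without controls 2 and 3. The direction of Id2 flipped on median-centred arrays, to 0.43 relative to the median.

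Among genes of canal and chamber muscle, 0 of 14 tested passed, with 12 positive and 2 negative changes and a median of 0.17. Bmp2 and Tbx2, the canal genes that Hey1 and Hey2 repress in chamber muscle, changed by 0.07 (SE 0.08) and 0.17 (SE 0.33), and Tbx2 was above background on 4 of 4 mutant and 2 of 4 control arrays. The T-box gene Tbx5 had 13.07, 13.02, 12.94 and 13.03 in mutants 1 to 4, against 12.76, 12.77, 12.60 and 12.77 in controls 1 to 4, groups that did not overlap, and changed by 0.26 (SE 0.06, unadjusted p = 0.000340, adjusted p = 0.141), or 0.25 without controls 2 and 3. The other list members with an unadjusted p under 0.05 were the muscle genes Smpx (0.18), Myl7 (0.11) and Myl2 (0.08) and the natriuretic peptide gene Nppb (0.53), all with adjusted p values from 0.244 to 0.393. At an unadjusted p under 0.05 the list had 3 of 14 without controls 2 and 3, against 7.38% of all probe sets tested in that fit, and 5 of 14 with all arrays, against 12.6%. The list was not alone in this. General cardiomyocyte markers, which also include Myl7, had 6 of 12 without controls 2 and 3 and 8 of 12 with all arrays, all higher.

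Among arterial endothelial genes, several of which respond to Notch, 0 of 10 tested passed, with 7 positive and 3 negative changes and a median of 0.20. The connexin gene Gja4 had 8.29, 8.01, 8.20 and 8.12 in mutants 1 to 4, against 7.24, 6.45, 6.36 and 7.05 in controls 1 to 4. Its groups did not overlap, and it changed by 1.17 (SE 0.30, unadjusted p = 0.00107, adjusted p = 0.200), or 1.01 without controls 2 and 3, although it was above background on 2 of 4 control arrays. The arterial factor Sox17 (0.86, SE 0.27), the ephrin Efnb2 (0.38, SE 0.15) and the coreceptor Nrp1 (0.22, SE 0.07) had unadjusted p values under 0.05 and adjusted ones from 0.253 to 0.334. Sox17 was read from 1429177_x_at, an _x_at probe set above background on 4 of 4 mutant and 3 of 4 control arrays. Its other probe set, 1421657_a_at, was above background on 1 of 4 mutant and 0 of 4 control arrays and was removed by the filter. The other 3 Nrp1 probe sets changed by 0.23, 0.18 and -0.09, and none of them had an unadjusted p under 0.05. At an unadjusted p under 0.05 by limma the list had 4 of 10 with all arrays, against 12.6% of all probe sets tested. Without controls 2 and 3 it had 3 of 10, all higher in mutant pools, against 7.38%. The list then had 5 positive and 5 negative changes with a median of 0.01. In that fit Efnb2 changed by 0.19 (SE 0.12), Sox17 by 0.63 and Nrp1 by 0.19.

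Single control arrays decided whether some of these genes passed, though no effector did when 1 array was left out. With control 1 left out, when 1402 probe sets in all passed as higher, Gja4 (1.64), Sox17 (1.61), Efnb2 (0.86), Dtx2 (2.80), Nppb (1.21) and Tbx5 (0.31) passed. With control 4 left out, when 1346 passed as higher, Gja4 (1.56), Sox17 (1.42), Efnb2 (0.79), Dtx2 (2.74) and Tbx5 (0.30) passed. Either step leaves the arrays with raised background as 2 of the 3 controls. Tbx5 also passed without mutant 3 (0.29, adjusted p = 0.0445 by limma). With all 8 arrays and without controls 2 and 3 together, 0 genes of the 6 lists passed. On median-centred arrays, where 10119 probe sets passed in all, the lists of arterial endothelium and canal and chamber muscle had 6 and 7 genes past the threshold.

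**Figure D4:**
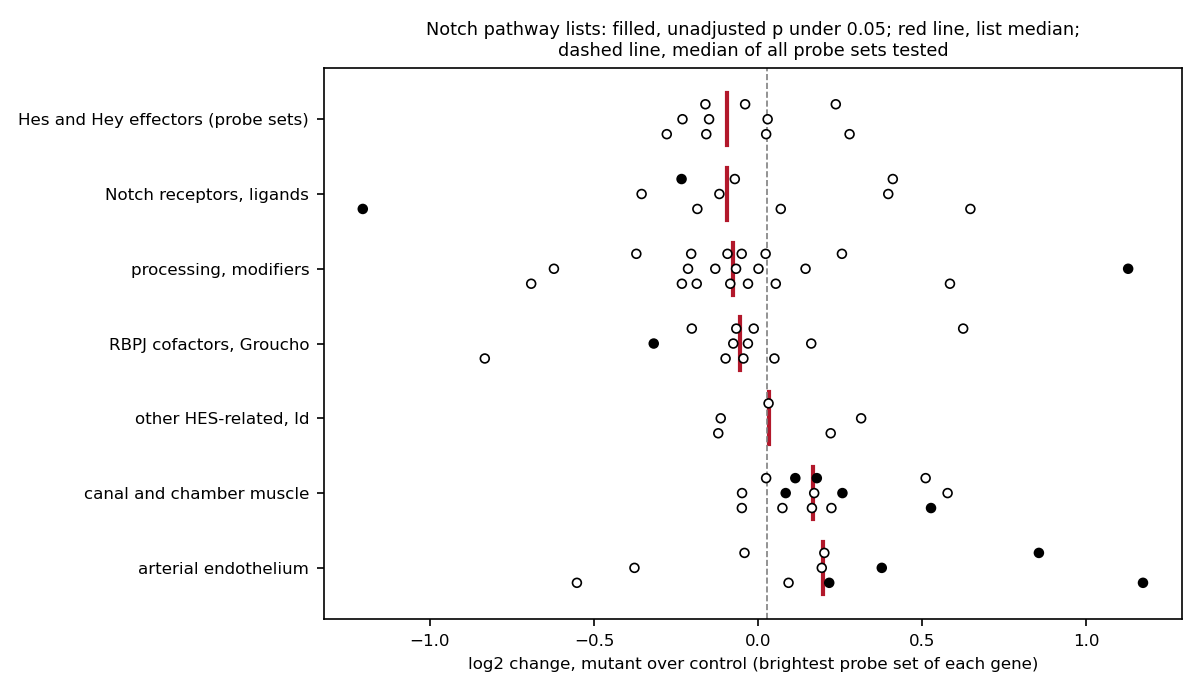
Log2 change, mutant over control, of the 10 effector probe sets and of the genes of 6 related lists. The effectors have 1 point per probe set, so Rbpj and Nrarp have more than 1. The lists have 1 point per gene, on its brightest probe set. Filled points have an unadjusted p under 0.05, red lines are list medians and the dashed line is the median of all probe sets tested (0.03). The medians run from -0.09 for the effectors, taken over probe sets, and for receptors and ligands to 0.20 for arterial endothelium. No point passed at an adjusted p of 0.05.

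The makeup of the pools bears on each of these values, since in whole tissue fewer cells of a type and less RNA per cell cannot be told apart. All 12 cushion mesenchyme markers were above background on all 8 arrays, as were 11 of 12 cardiomyocyte and 8 of 14 endothelial markers. So were 6 of 9 erythroid markers, and all 8 erythroid markers tested had negative changes. Only 1 of 8 neural and 1 of 10 macrophage markers was above background on all 8. On the deposited scale, the brightest probe sets of cardiomyocyte markers summed to 114390 to 128003 on mutant arrays and 90869 to 108384 on control arrays. All 12 tested had positive changes. These sums, and those below, were taken before quantile normalization, on arrays with equal plain means. The raised background of controls 2 and 3 also enters them, so the sums alone do not show a difference in makeup. Cushion mesenchyme markers summed to 41556 to 48787 on mutant arrays and 45611 to 54217 on control arrays, with negative changes for 10 of 12. Their median change was -0.34. At an unadjusted p under 0.05 by limma, 6 of 12 were lower and 0 higher, against 12.6% of all probe sets tested. Without controls 2 and 3 the median was -0.42 and 7 of 12 were lower, against 7.38%. In either fit 0 passed. Endothelial markers summed to 13222 to 14719 on mutant arrays and 13781 to 16084 on control arrays. Of 13 tested, 9 had positive changes, with a median of 0.28. That sum leans on its brightest gene, Tek, which was lower on every mutant array than on any control array. One endothelial marker passed, Tek, which encodes the receptor Tie2 and was named after its values were seen, with 3901, 3992, 3971 and 3570 in mutants 1 to 4, against 6059, 4362, 5448 and 6393 in controls 1 to 4 on the authors' linear scale. Its log2 change was -0.72 (SE 0.07, adjusted p = 0.000172 by limma), also -0.72 without controls 2 and 3, but -0.17 (adjusted p = 0.642) relative to the median on median-centred arrays, and it did not pass without weights, trend and robust (-0.69, adjusted p = 0.374). Epicardial markers summed to 7469 to 11786 on mutant arrays and 6253 to 6908 on control arrays, with positive changes for 8 of 8 tested. Their median change was 0.54. At an unadjusted p under 0.05 by limma, 6 of 8 were higher and 0 lower, against 12.6% of all probe sets tested. Without controls 2 and 3 the median was 0.45 and 5 of 8 were higher, against 7.38%. Here too 0 passed in either fit. What part the makeup of the pools had in the values of the Hes and Hey genes was not tested.

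Genes with the profile most like each effector over the 8 arrays were found among 12907 probe sets that were above background on all arrays, and likeness is Pearson's r over n = 8 arrays, given as a description since the highest of many values was taken. Hey1 ran closest to Igdcc4 (r = 0.96) and Pim3 (r = 0.96). Hey2 ran closest to Snapin and to Prox1, a homeobox gene of heart muscle and lymphatic endothelium (r = 0.97 each). Rbpj ran with Thbs1 (0.96) and Rfx5 (0.95), Nrarp with Tmem106c (0.98) and Ap3s2 (0.97), and Hes6 with Rab3ip (0.88) and Chpt1 (0.87). The profiles of Hes1 (Gatad1, 0.99, and Ptpn4, 0.95) and of Heyl (Aqp4, 0.98, and Gtf2h5, 0.98) include arrays on which the effector was not above background. Over the 6 arrays without controls 2 and 3 these r values were 0.82 to 0.99, the lowest being that of Hes1 with Ptpn4. The arrays share their background and scaling, so these values also hold array effects.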

How the data were processed

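RNA from 8 pools was measured on Affymetrix mouse arrays. The deposited intensity values are linear probe set signals. The submitters' processing notes name MAS5 as the authors' tool, with no version or detection call given in the sources used here. Their plain mean was 715 on every array, while medians differed by up to 3.76 times. Here values were taken as log2(intensity + 16) and quantile normalized, since 2% trimmed means differed by 1.12 times, over the limit of 1.1. Leaving out 64 array controls and the dimmest 40% of the rest, by mean over the 8 arrays, kept 27022 probe sets. Mutant and control pools were compared with limma 3.58.1 in R 4.3.3 (arrayWeights, eBayes with trend and robust, two-sided), with Benjamini-Hochberg adjustment over all 27022. Means ± SD are unweighted. Log2 changes come from the weighted fit, and the 16 added before taking logs shrinks those of dim genes. Changes of dim genes also moved with controls 2 and 3, so they are not lower bounds. Gata4 on 1418864_at changed by 0.98 with all arrays and by 0.30 without these 2, at equal weights. For arrays, the number of pools limits the precision.

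Names came from the platform annotation, in which 34958 probe sets had 1 symbol, 932 several and 9211 none. Of those with 1 symbol, 34754 matched RefSeq by Entrez ID. All probe sets of the 7 genes were named, and from each list the genes whose brightest probe set had an unadjusted p under 0.05, or otherwise the 2 of smallest p, and Gata4. Tek, Notch1 and Jag1 were named after their values were seen. The 2 most alike genes per effector were taken by Pearson's r. The members, lists and alternatives were chosen with earlier results of these data known. Same-numbered mutant and control pools had deviations that correlated at -0.11, 0.01, -0.13 and 0.17 for numbers 1 to 4. Mutants 1, 2, 3 and 4 correlated best with controls 2, 3, 4 and 4, and controls 1, 2, 3 and 4 with mutants 4, 1, 1 and 3. With only 4 pools per group these values cannot decide whether the numbers paired the pools, and the main fit has no pairing term. Alternatives covered scaling, offset, filter, weights, a replicate block, RNA quality and left-out arrays.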

Additional observations from a re-analysis of the deposited data

Results flagged for a closer look

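Of the 56 groups of 4 arrays checked, for the 13 effector probe sets and the named list genes, 5 held an array set apart from the other 3 by most of the group's range, where chance gives about 5%. Hey2 was 11.96 on mutant 2, against 12.30 to 12.34 on the other mutants. Heyl on 1419302_at was 4.99 on mutant 4, where it was not above background, against 6.54 to 6.72 on the other mutants, and without mutant 4 its change turned from negative to 0.30. Rbpj on 1448957_at was 9.25 on control 2, one of the arrays with raised background, against 10.02 to 10.17 on the other controls. Id2 on 1435176_a_at was 12.78 on mutant 4, against 12.89 to 12.90 on the other mutants. Tbx5 on 1425695_at was 12.60 on control 3, against 12.76 to 12.77 on the other controls.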

How the results depend on the processing

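The log2 changes of the 10 effector probe sets gave 198 values under the alternatives, of which 169 kept both direction and side of the threshold, 26 changed sign and 3 passed. These 3 were Hey1, Hey2 and Heyl on 1419302_at (-2.58), all on median-centred arrays, where the count of effector probe sets past the threshold was 3 in place of 0; under the other alternatives it was 0. Hey1 and Rbpj on 1418114_at kept their sign throughout, at 0.09 to 0.96 and -0.49 to -0.21.

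Hes1 changed sign with no filter (0.091), equal weights (0.29, also without trend and robust) and the replicate block (0.12), and stayed negative and larger on the authors' scaling (-0.67) and median-centred arrays (-0.74). Hey2 did so without controls 2 and 3 (-0.058 with equal and -0.014 with array weights) and with the 3 prime to 5 prime RNA ratio as covariate (-0.0685), under which Heyl was at 0.0235. Heyl was at 0.091 without controls 2 and 3. Nrarp on 1417986_at was -0.18 on the authors' scaling. On median-centred arrays, relative to the median, Nrarp was 0.057 and -0.41, Rbpj 0.24 on 1448957_at and 0.14 on 1454896_at, Notch2 0.28, Id2 0.43 and Gata4 0.29. With 1 array left out, changes ranged from -0.21 to 0.43 for Hes1, -0.085 to 0.20 for Hes6, -0.0079 to 0.15 for Hey2, -1.23 to 0.30 for Heyl and -0.24 to 0.0033 for Rbpj on 1448957_at. The causes were not tested.

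Over all probe sets, 7 were higher and 5 lower. Counts were 41 and 22 on the authors' scaling, 3257 and 6862 on median-centred arrays relative to the median (17318 and 1833 against 0, where the median change was 1.13), 22 and 12 with an offset of 64, 14 and 12 with no filter, 6 and 10 with equal weights, 0 and 0 without weights, trend and robust (3421 at an unadjusted p under 0.05), 26 and 34 with the replicate block, 1 and 1 without controls 2 and 3 by either weighting, and 2 and 2 with the covariate. With 1 array left out they ran from 3 to 1402 and from 2 to 387, the highest being 1402 and 261 without control 1 and 1346 and 387 without control 4. Whether the numbers paired the pools is not settled, and the block called 0 effectors. Under the block Hey1 changed by 0.26 (SE 0.12, unadjusted p = 0.0475 and adjusted p = 0.469 by limma).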
